A study of Mus musculus with 9 samples.

Results

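The intraepithelial lymphocytes of the gut that carried both CD4 and CD8 were compared with the intraepithelial lymphocytes that carried CD8. The comparison rests on 2 of the 9 samples of the series, the sample labelled CD4CD8 and the sample labelled CD8. Levels were log2 normalized counts of 770 immune and reference genes, read with pairs of a capture probe and a barcoded reporter probe. The lowest value of the table, equal to 20 normalized counts on the linear scale, was shared by all samples and is called the floor, and a gene above it is called detected. The comparison holds every gene detected in either sample, which gave 382 of the 770 genes. Of these, 321 were detected in both samples, 29 in CD4CD8 only and 32 in CD8 only, and the other 388 genes lay at the floor in both.

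The mice were on the B10.RIII background, which is susceptible to experimental autoimmune uveitis. The labels name wild-type and Rag2-/- IRBP-/- R161H mice, and immunization with 10 µg of the retinal peptide IRBP161-180 in complete Freund's adjuvant. R161H mice carry a transgenic T cell receptor for this peptide, and mice without Rag2 make no other T or B cells. Wild-type mice received ampicillin, metronidazole, neomycin, vancomycin and gentamicin together in a gel, for 1 week or for at least 4 weeks before immunization. The labels do not say which genotype, antibiotic arm, age or number of mice stood behind either sample, whether cells of several mice were pooled, or how the cells were selected. There was 1 sample on each side, so no value below has a replicate error, no test was run, and a difference describes these 2 samples.

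The epithelium of the small intestine holds T cells that stay in place and respond at once. Many of them carry the CD8 co-receptor as a pair of alpha chains, in place of the alpha and beta chains of circulating CD8 T cells. Helper T cells that enter the epithelium are known to acquire the alpha chain too, which yields cells positive for CD4 and CD8, with a partial loss of the helper programme and a gain of killer functions. The intraepithelial CD8 population is itself mixed, and is known to include cells with and without the beta chain, with NK-type receptors on many of them.

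The co-receptor genes matched the sample labels, and the 2 samples differed in Cd4 and in the beta chain of CD8 but not by 2-fold in the alpha chain. Cd4 was 10.06 in CD4CD8 and at the floor in CD8. In the other samples it was 9.80, 9.14, 9.62 and 9.64 in CD4 cells of the intraepithelial compartment, the lamina propria, the mesenteric and the peripheral nodes, and at the floor in all their CD8 counterparts. The CD4CD8 sample thus had the highest Cd4 value of the 9, and the difference from CD8 was at least 32.2-fold. Cd8a, the alpha chain, was 11.50 in CD4CD8 and 11.29 in CD8, the 2 highest values among the samples, against 9.62, 10.26 and 10.09 in CD8 cells of the lamina propria, the mesenteric and the peripheral nodes. Its difference of 0.21 (counting interval 0.10 to 0.32) was -0.02 after median centring and -0.27 with equal sums, scalings described below. Cd8b1, the beta chain, was at the floor in CD4CD8 and in all 4 CD4 samples, and was 8.85, 8.87, 9.91 and 9.65 in the CD8 samples of the intraepithelial compartment, the lamina propria, the mesenteric and the peripheral nodes. Its level in CD4CD8 was at least 10.1-fold below that in intraepithelial CD8. The CD4CD8 sample therefore had the alpha chain transcript within 2-fold of the CD8 sample and no beta chain transcript above its limit of detection. In bulk samples such as these, fewer cells of a type and less RNA per cell cannot be told apart.

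That limit differed between the samples. In both, low values were multiples of a fixed step, which was worth 2.30 normalized counts in CD4CD8 and 1.66 in CD8, and the lowest value above the floor, 5.52 and 5.05, equalled 20 counts in each. A gene at the floor is thus known only to lie below 20 counts, and a fold against it is a lower bound taken at that limit. Summed over the detected genes, the 2 samples held 137659 and 136501 counts. A gene was counted as different at 2-fold, a log2 difference of 1, and counting intervals are exact 95% intervals of the ratio of the counts, which cover counting error only.

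By this rule 44 genes were higher in CD4CD8, 11.5% of the 382, and 16 were lower, 4.19%. Of the 44, 31 were detected in both samples and 13 were bounds, from genes that entered the comparison through 1 sample only. Of the 16, these numbers were 9 and 7. All 40 measured on both sides had a counting interval that excluded equal levels, a statement about these 2 samples and not about the populations. This followed from the selection, because 20 counts on each side and a 2-fold difference are enough for such an interval. For comparison, 3.41% of genes passed 2-fold in either direction between the CD8 samples of the mesenteric and the peripheral nodes, against 15.7% here. Those node samples were not replicates, and their lowest values above the floor, 4.36 and 4.34, lay below the 5.52 and 5.05 here. Between intraepithelial CD4CD8 and CD4 the share was 19.7%, and between intraepithelial CD8 and CD4 it was 27.3%. The median difference over the 321 genes was 0.26, with quartiles of -0.04 and 0.51, so differences are read against a small shift of the whole panel towards CD4CD8. Centring both samples on their medians left 28 genes higher and 24 lower, so that 53.8% of the called genes were higher in place of 73.3%. With the samples scaled to the same linear sum 18 were higher and 35 lower, or 34.0%. Just inside the threshold lay Fas and Cxcl10, both at 1.00, and just outside it Cd200r1 at 0.99 and Ccl5 at 0.98.

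**Figure D1:**
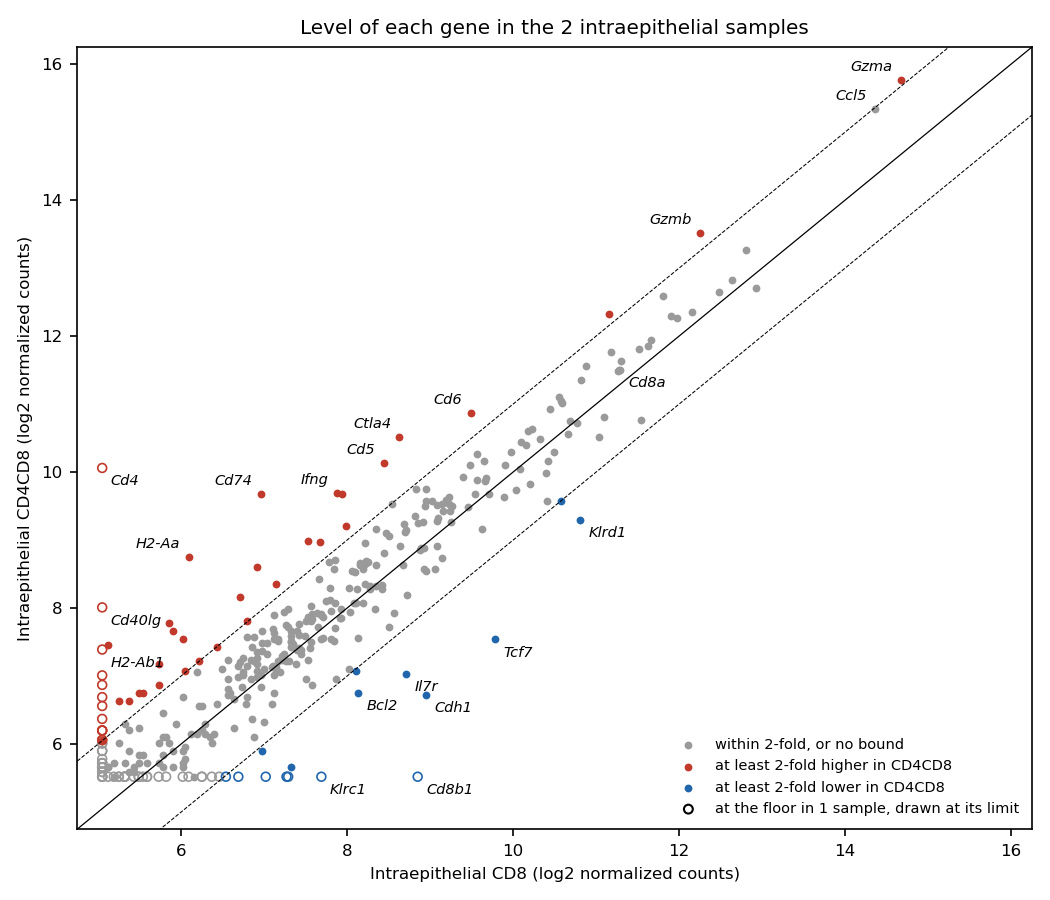
Each point is 1 of the 382 genes, with its level in intraepithelial CD8 on the horizontal axis and in intraepithelial CD4CD8 on the vertical axis, both in log2 normalized counts. Dashed lines mark 2-fold, red and blue points lie past it, and open points were at the floor in 1 sample and are drawn at that sample's limit. Cd4 and Cd8b1 lie on the 2 edges, and Gzma, at 14.67 and 15.76, lies at the upper right just past the 2-fold line.

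Several genes of helper cells were higher in CD4CD8 than in CD8. Cd40lg, the ligand by which helper cells stimulate B cells and dendritic cells, was 8.01 in CD4CD8 and at the floor in CD8, at least 7.78-fold apart. Il21, a helper cytokine, was 7.01 and at the floor, at least 3.89-fold apart. In intraepithelial CD4 these genes stood higher still, at 9.37 and 8.65, so that CD4CD8 lay between the 2 single-positive samples. The costimulatory receptor Icos followed the same order, with 10.69 in CD4, 8.60 in CD4CD8 and 6.92 in CD8, a log2 difference of 1.68 from CD8 (counting interval 1.28 to 2.10). So did Ctla4, the inhibitory receptor of activated and regulatory T cells, which the helper list does not hold, with 11.44, 10.51 and 8.63 (difference 1.88, interval 1.66 to 2.10). Ccr6, a chemokine receptor of Th17 cells, was 7.62 in CD4, 6.20 in CD4CD8 and at the floor in CD8. Of 20 measured genes of the helper list, 9 were detected in either sample, 5 of these were at least 2-fold higher and none lower, beside 11.5% and 4.19% over all 382 genes, and the median was 1.14 against 0.25. The median includes the bounds of Cd40lg, Il21 and Ccr6. It also includes Slamf6, which was at the floor in CD4CD8 and 5.49 or 27 counts in CD8. That value lay below the limit of CD4CD8, so the difference of Slamf6 was set to 0. Over the 5 genes detected in both samples the median was 0.35 against 0.26. The called genes were Cd40lg, Il21, Icos, Ccr6 and Tnf. Tnf was 6.87 and 5.73, and its difference of 1.14 was 0.91 after median centring and 0.66 with equal sums. Ccr6, whose bound was 1.15, was 0.92 and 0.67 under these scalings and 0.68 with both samples raised to the higher limit, so 3 of the 5 stayed past 2-fold with centring and with equal sums. Ltb, which encodes lymphotoxin beta, and Tnfsf14 stayed within 2-fold, at -0.19 and -0.11.

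Foxp3, which defines regulatory T cells, was at the floor in CD4CD8 and CD8 and was 8.02 in intraepithelial CD4. Of 15 measured genes of the regulatory list, 7 were at the floor in both samples, and of the 8 others 1, Ctla4, passed 2-fold, a share near the 15.7% of all genes. Ikzf2 (Helios), a factor of regulatory and of natural intraepithelial T cells, was 7.11 in CD4CD8 against 8.02 in CD8 and 8.21 in CD4. Tnfrsf18 (GITR) was 5.90, 6.02 and 7.40 in the same order.

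Among lineage transcription factors, 5 of 14 were at least 2-fold higher in CD4CD8 and 1, Tcf7, was lower, with a median of 0.64, beside 11.5% higher, 4.19% lower and a median of 0.25 over all 382 genes. Rora, which encodes a nuclear receptor active in Th17 cells, was 9.67 in CD4CD8 and 7.94 in CD8 (difference 1.73, interval 1.45 to 2.02), and 9.68 in intraepithelial CD4. Irf4 and Batf, which act together downstream of the T cell receptor, were 7.66 against 5.90 and 8.99 against 7.53. Runx1, a factor that silences Cd4 in thymocytes, was 8.16 in CD4CD8, 6.71 in CD8 and 8.88 in CD4. Prdm1 (Blimp-1), a factor of effector and resident T cells, was 7.18 against 5.73, and 6.30 in CD4, at that sample's limit. The differences of the 5 ran from 1.45 to 1.76, and those of Runx1, Prdm1 and Batf were 0.97, 0.97 and 0.98 with the samples scaled to the same linear sum. Runx3, the factor of the CD8 lineage that also acts in CD4 cells of the epithelium, was 7.72 in CD4CD8, 7.29 in CD8 and 7.44 in CD4, all within 2-fold. Tbx21 (T-bet) was 7.20, 6.71 and 6.30, and Gata3 7.67, 6.98 and 7.68.

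**Figure D2:**
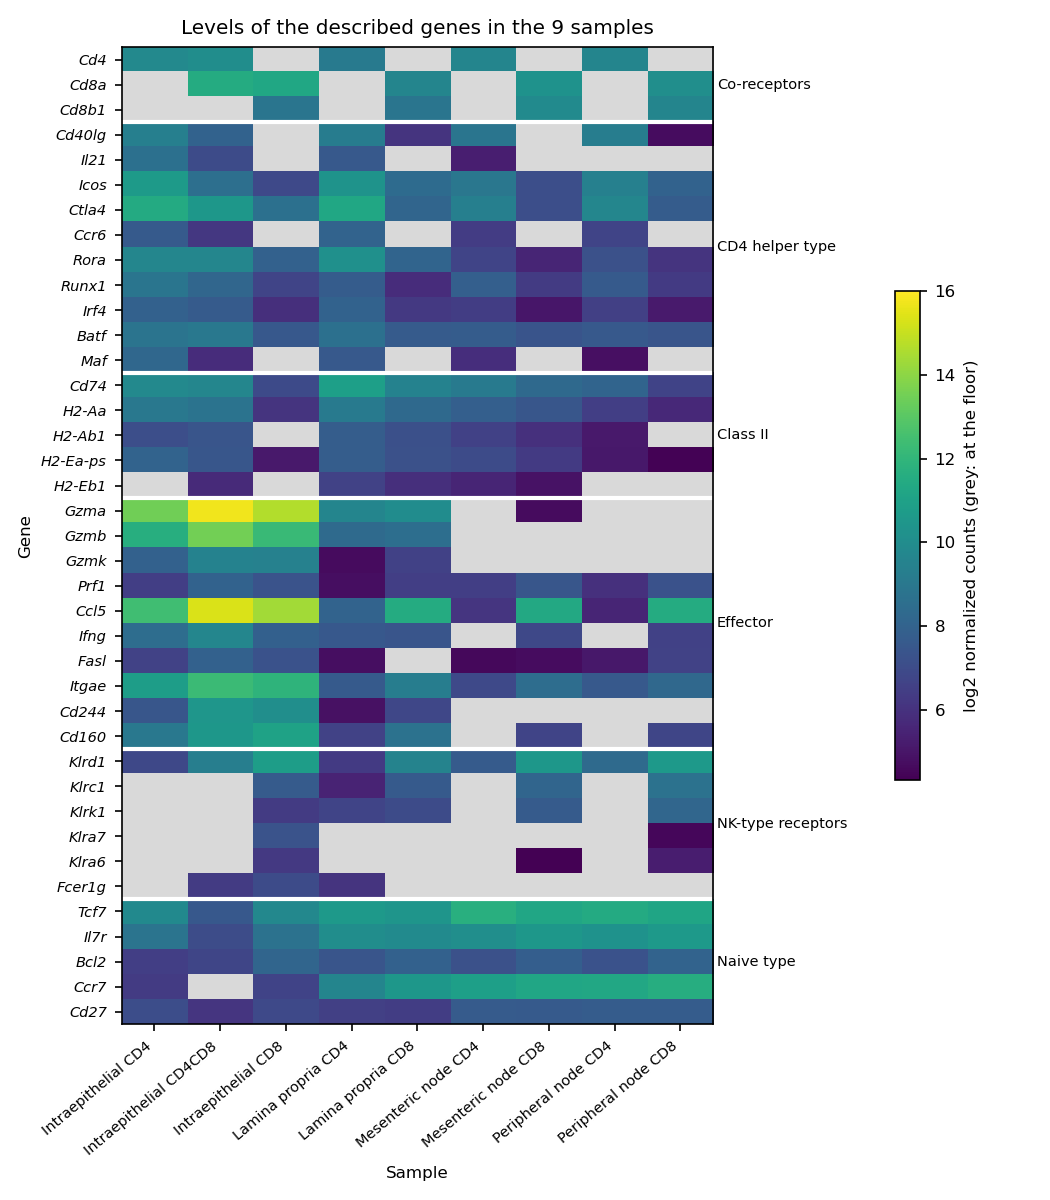
Colour gives the log2 normalized counts of 39 genes (rows) in the 9 samples (columns), with grey cells at the floor, which means below the sample's own limit. In the CD4CD8 column Cd4 and Cd8a are both coloured and Cd8b1 is grey, Cd40lg, Il21, Icos and Ctla4 lie between the values of the CD4 and CD8 columns of the same compartment, and Gzma, Gzmb and Ccl5 reach 15.76, 13.51 and 15.34.

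Class II genes made up the group with the highest median. Of 10 measured members, 6 were detected in either sample, 4 of these were at least 2-fold higher in CD4CD8 and none lower, and the median was 2.33, beside 11.5% higher, 4.19% lower and a median of 0.25 over all genes. Cd74, the invariant chain that escorts class II molecules, was 9.68 in CD4CD8 and 6.96 in CD8, a 6.59-fold difference (log2 2.72, interval 2.36 to 3.10). H2-Aa, a class II alpha chain, was 8.75 against 6.09 (2.66, interval 2.17 to 3.19). Its partner H2-Ab1 was 7.39 against a value at the floor, at least 5.06-fold. H2-Ea-ps, the E alpha chain, which the reference annotation holds as a pseudogene, was 7.45 against 5.12. H2-Eb1 was 5.72, or 23 counts, against the floor, and H2-Dma, which helps to load peptide, was 6.95 against 6.84.

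In intraepithelial CD4 the same genes were 9.84 for Cd74, 8.99 for H2-Aa, 7.11 for H2-Ab1 and 8.02 for H2-Ea-ps. In the lamina propria CD8 sample they were 9.51, 8.33, 7.18 and 7.22. In lamina propria CD4 they were 10.90, 9.11, 7.78 and 7.76, so intraepithelial CD8 had the lowest value of the 5 gut samples in each. The lamina propria samples also held Lyz2, a myeloid marker, at 9.52 in CD4 and 8.98 in CD8, and Epcam, an epithelial marker, at 9.48 and 9.21. Ciita, the master regulator of class II genes, was at the floor in all 9 samples.

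The class II genes are chiefly made by antigen-presenting cells, so markers of those cells are given beside them. Of 6 B cell markers, 5 were at the floor in CD4CD8, among them Cd79a and Pax5, and Ms4a1 was 5.59, or 21 counts. All 6 were at the floor in CD8. Cd79b, a B cell receptor chain that is not among the 6, went the other way, at the floor in CD4CD8 and at 7.27 or 93 counts in CD8, at least 3.36-fold lower. Of 13 myeloid markers, 12 were at the floor in each sample, Lyz2, Csf1r and Itgam among them, and the detected ones were Cd68 at 6.01 in CD4CD8 and Itgax at 5.43 in CD8. Summed levels were 48.2 normalized counts for B cell and 64.4 for myeloid markers in CD4CD8, against 0 and 43.1 in CD8. The wider lists lay on both sides. Of 18 measured B cell genes, 5 were detected in either sample. Besides Ms4a1 and Cd79b these were Pou2f2, a factor of B cells, at 6.63 against 5.25, Cd180, a receptor of B cells and macrophages, at 6.20 against the floor, and Cd37, a lymphocyte membrane protein, at 9.27 against 9.25. Of 34 measured myeloid genes, 4 were detected in either sample, each in 1 sample only. None had a bound past 2-fold, so larger differences remain possible. Besides Cd68 and Itgax these were Cybb and Ncf4, both subunits of the phagocyte oxidase. Cybb was 5.90 in CD4CD8 and at the floor in CD8, and Ncf4 was at the floor in CD4CD8 and 6.02 or 39 counts in CD8. Ctsh, a lysosomal protease, was 6.87 against the floor. Ly86 and Ctsl, which are in neither list, were 6.69 and 6.37 against the floor, at least 3.12-fold and 2.50-fold higher. Irf8, a factor of B cells and dendritic cells that activated T cells also make, was 7.78 against 5.86. The part of other cells in the class II difference was not tested.

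Class II promoters share a box known as Y, which the factor NF-Y binds. The RefSeq table of mouse promoters (build GRCm38.p6, 250 bases before to 50 after the start) matched 6 measured class II chain genes of chromosome 17, and the Y box core CTGATTGG, searched on both strands, was found in 2 of them, H2-Aa and H2-Eb1. It was found in 4.10% of all 32851 promoters of that length. The 4 class II genes without the core were H2-DMa, H2-DMb1, H2-DMb2 and H2-Ob. Of the class II genes at least 2-fold higher in CD4CD8, H2-Aa alone was among the 6. Cd74, H2-Ab1 and the E alpha chain were not, so the 2 of 6 do not describe the genes that differed. The promoters of H2-Aa and H2-Eb1 are shown with the match in capitals, 51 and 62 bases before the start. H2-Aa carries one of the highest differences, and H2-Eb1 encodes a class II beta chain close to the limit. A match is a description of letters and not a measured site. The letters are those of the reference build, and the alleles of the B10.RIII mice were not examined. H2-Aa lies at chr17:34287774-34288073 on the minus strand and H2-Eb1 at chr17:34305617-34305916 on the plus strand.
H2-Aa: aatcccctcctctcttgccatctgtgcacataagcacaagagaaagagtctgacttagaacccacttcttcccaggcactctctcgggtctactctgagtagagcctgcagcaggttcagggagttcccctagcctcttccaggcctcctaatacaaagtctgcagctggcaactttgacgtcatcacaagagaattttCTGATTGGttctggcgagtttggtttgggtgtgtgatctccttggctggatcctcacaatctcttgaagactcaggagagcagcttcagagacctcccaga
H2-Eb1: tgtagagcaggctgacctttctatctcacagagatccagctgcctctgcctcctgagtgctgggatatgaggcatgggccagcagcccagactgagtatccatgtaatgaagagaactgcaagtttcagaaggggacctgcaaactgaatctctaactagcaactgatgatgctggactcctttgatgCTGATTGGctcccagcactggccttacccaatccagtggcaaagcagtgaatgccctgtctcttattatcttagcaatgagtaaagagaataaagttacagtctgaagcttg

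Of 7 detected members of the granule list, Gzma, Gzmb and Lamp2 (a lysosomal membrane protein) were at least 2-fold higher in CD4CD8, beside 11.5% of all genes, and none was lower by as much. Gzma, a granule protease, was 15.76 in CD4CD8, 14.67 in CD8 and 13.48 in CD4 (difference from CD8 1.09, interval 1.06 to 1.12). Gzmb, the protease that starts apoptosis in target cells, was 13.51, 12.25 and 11.66 (difference 1.26, interval 1.19 to 1.33). Both were highest of the 9 samples in CD4CD8. Gzma, Gzmb and Ccl5 together held 34.4% of the summed normalized counts in CD4CD8, 22.9% in CD8 and 10.4% in CD4. The differences of all 3 moved with the scaling. Gzma was 0.86 after median centring and 0.61 with equal sums, Gzmb was 1.03 and 0.78, and Lamp2, 1.22 as deposited, was 0.99 and 0.74. Of the 3, Gzmb alone stayed past 2-fold after centring, and none did with equal sums. Gzmk, another granzyme, was 9.49 and 9.46, and Prf1, the pore-forming protein, 7.99 and 7.29. Ctsw, a protease of cytotoxic cells, was lower in CD4CD8, at 10.77 against 11.54.

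Cytokines and chemokines of cytotoxic cells lay on both sides. Ifng, the interferon that activates macrophages and epithelium, was 9.69 in CD4CD8, 7.88 in CD8 and 8.49 in CD4, the highest of the 9 samples and 3.51-fold above CD8 (log2 1.81, interval 1.53 to 2.10). Ccl5 was 15.34 against 14.36, a difference of 0.98, and Ccl3 and Ccl4 differed by 0.43 and 0.48. Xcl1, which attracts cross-presenting dendritic cells, was lower in CD4CD8, at 9.57 against 10.41. Csf2, the growth factor GM-CSF, was at the floor in CD4CD8 and 6.54 in CD8. Fasl, a death receptor ligand, was 7.94 and 7.24. Il18r1, a chain of the IL-18 receptor, was 6.75 in CD4CD8, 5.49 in CD8 and 9.63 in CD4.

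Several NK-type receptors were lower in CD4CD8 than in CD8. Klrd1, the CD94 chain, was 9.30 against 10.81 (difference -1.51, interval -1.70 to -1.32), and 6.84 in intraepithelial CD4. Klrc1, its NKG2A partner, was 7.69 in CD8 and at the floor in CD4CD8 and CD4, at least 4.50-fold lower in CD4CD8. Klra7, a Ly49 receptor, was 7.29 in CD8 and at the floor in the same samples, at least 3.41-fold lower in CD4CD8. Klrk1 (NKG2D) at 6.37 and Klra6 at 6.25 were likewise detected in CD8 and not in the other intraepithelial samples, with bounds under 2-fold for CD4CD8. The limit of intraepithelial CD4 was 6.30, above the CD8 value of Klra6 and close to that of Klrk1. Their absence in CD4 thus shows no clear difference from CD8. Klra17 went the other way, at 6.06 or 29 counts in CD4CD8 against the floor, and lay below 2-fold after median centring, housekeeping scaling and equal sums. Ly49 genes are near-identical copies, and probes may not tell all of them apart. Of 27 measured members, 13 were detected in either sample, with 3 at least 2-fold lower, 1 higher and a median of -0.53, beside 4.19% lower, 11.5% higher and 0.25 over all genes. Over the 6 genes detected in both samples the median was -0.09, so the list's median rests on bounds. Cd160, a receptor of cytotoxic and intraepithelial T cells, was lower by less than 2-fold, at 10.51 against 11.04 (difference -0.53, interval -0.67 to -0.39), and 8.99 in CD4, and its difference was -1.01 with equal sums. Cd244 (2B4) was 10.44 against 10.09, and 7.44 in CD4.

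Most detected genes of the naive and lymph node homing list were lower in CD4CD8. Of 10 measured, 7 were detected in either sample, with 4 at least 2-fold lower in CD4CD8, none higher and a median of -1.17 (-1.07 over the 6 detected in both), beside 4.19% lower over all genes. Tcf7, the factor of naive and memory T cells, was 7.54 in CD4CD8, 9.78 in CD8 and 9.87 in CD4 (difference from CD8 -2.24, interval -2.60 to -1.90). In the 6 other samples it lay between 10.40 and 11.68, so CD4CD8 had the lowest value of all 9. Il7r, the receptor chain for the survival cytokine IL-7, was 7.03, 8.71 and 8.80 (-1.68, interval -2.12 to -1.26), again the lowest of the 9. Bcl2, a survival factor that IL-7 sustains, was 6.75 against 8.13, and 6.50 in CD4. Ccr7, the lymph node homing receptor, was at the floor in CD4CD8, 6.69 in CD8 and 6.37 in CD4.

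Among the residence and gut homing genes 9 of 12 were within 2-fold, beside 322 of 382 over all genes. Itgae, the CD103 chain that binds E-cadherin, was 12.29 in CD4CD8 and 11.90 in CD8, Itga1, a collagen-binding integrin chain, was 9.73 and 10.04, and Ccr9, a gut homing receptor, was 10.16 and 10.42. Cdh1, E-cadherin itself, was 6.72 in CD4CD8 against 8.95 in CD8 and 6.62 in CD4 (difference from CD8 -2.23, interval -2.71 to -1.78). The epithelial marker Epcam was 6.15 and 6.29, or 31 and 47 counts. The summed level of 12 epithelial and stromal markers, Cdh1 among them, was 247.4 and 657.3 normalized counts, with 9 at the floor in each. Most of the gap between the sums was Cdh1 itself. Epcam differed by -0.14 and Pecam1, the remaining detected marker, by -0.25. Itgb1, the beta-1 integrin chain, was 5.66 in CD4CD8, or 22 counts, against 7.32 in CD8 and 7.15 in CD4.

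Genes of the T cell receptor complex and its signalling were within 2-fold for 15 of 18 detected members, a share near the 322 of 382 over all genes. Among the 15 were the receptor chains Cd3e at 0.34, Cd3g at 0.19, Cd3d at -0.28 and Cd247 at 0.92. The difference of Cd247 (interval 0.69 to 1.15) lay close to the threshold, and that of Cd3d (interval -0.41 to -0.15) went the other way. The kinases Lck and Zap70 were at 0.22 and 0.33. Cd5 and Cd6, receptors that dampen signals of the T cell receptor, were higher in CD4CD8. Cd5 was 10.13 in CD4CD8, 8.44 in CD8 and 9.63 in CD4 (1.69, interval 1.46 to 1.93), and Cd6 was 10.87, 9.49 and 9.74 (1.38, interval 1.21 to 1.55). In both genes CD4CD8 had the highest value of the 9 samples. Thy1, a surface glycoprotein that many natural intraepithelial cells lack, was 9.57 against 10.58. Dpp4 (CD26), an ectoenzyme of T cells, was 7.08 against 8.11.

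**Figure D3:**
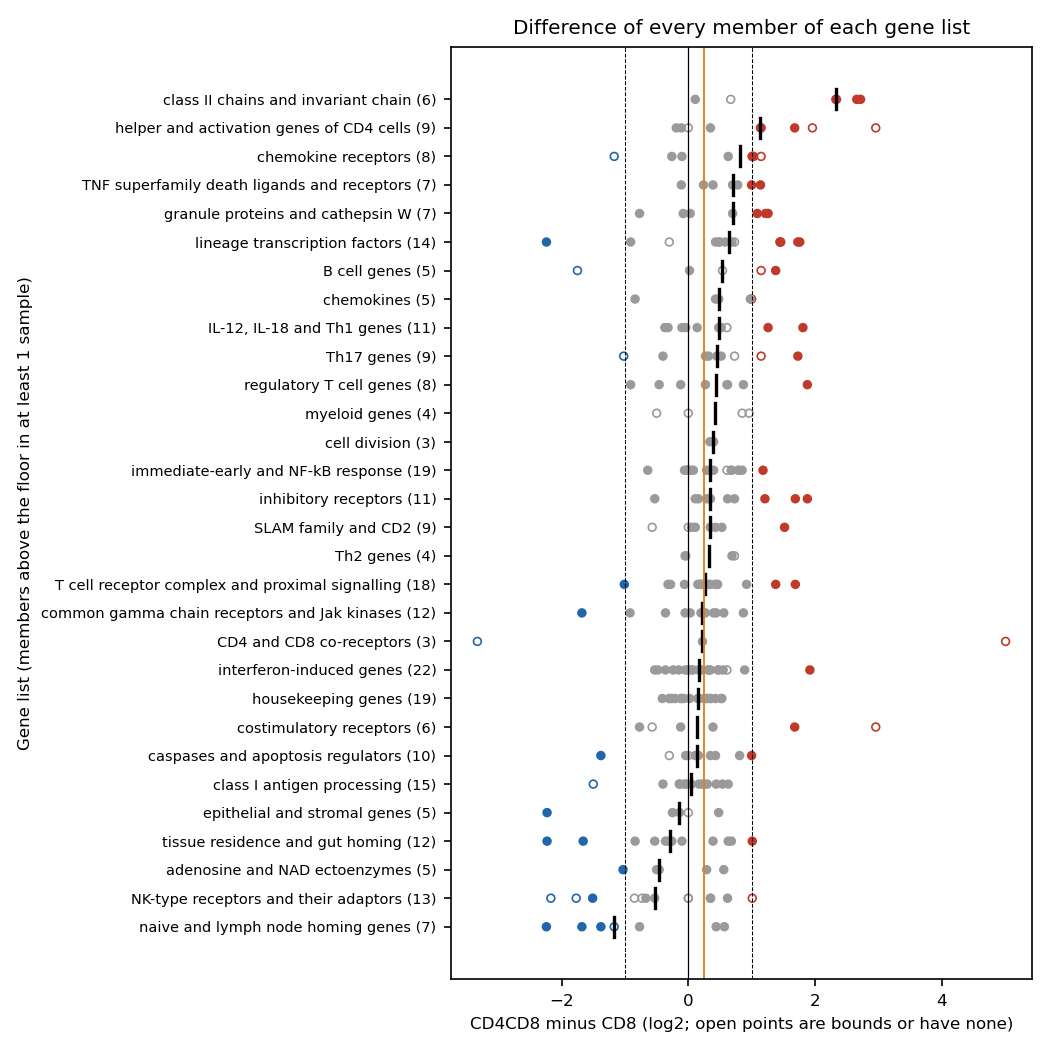
Points give the log2 difference, CD4CD8 minus CD8, of every member of each gene list, with the number of members in brackets, black bars at the list medians and an orange line at the median of all 382 genes (0.25). Red and blue points lie past 2-fold, and open points were at the floor in 1 sample. The class II list lies farthest to the right, with a median of 2.33, and the naive and NK-type lists farthest to the left, with medians of -1.17 and -0.53.

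Few genes of CD4CD8 lay outside the range of both single-positive intraepithelial samples by 2-fold. Among 404 genes detected in any of the 3, 5 were at least 2-fold above both and 3 at least 2-fold below both. Intraepithelial CD4 held 49032 counts, fewer than the other 2 samples, and its limit was higher, at 6.30. A gene at the floor there counted as above both only if CD4CD8 lay at least 1 log2 above 6.30. Genes at lower levels may therefore have been missed. Above both lay Gzmb by 1.26, Lgals3 (galectin-3, a sugar-binding protein) by 1.21, Ifng by 1.20, Cd6 by 1.13 and Gzma by 1.09. Below both lay Tcf7 by -2.24, Il7r by -1.68 and Itgb1 by -1.49. With samples scaled on housekeeping genes 3 lay above both, without Cd6 and Gzma, and 6 below, with Ccr7, Icam2 and Ikzf2 added. Centring on the median of genes detected in the 3 samples, added after seeing the data, gave 4 above, without Gzma, and 4 below, with Ikzf2. With equal sums of CD4CD8 and CD8, the genes Gzma, Gzmb, Cd6 and Lgals3 were no longer 2-fold above CD8. Equal sums were not applied across the 3 samples.

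**Figure D4:**
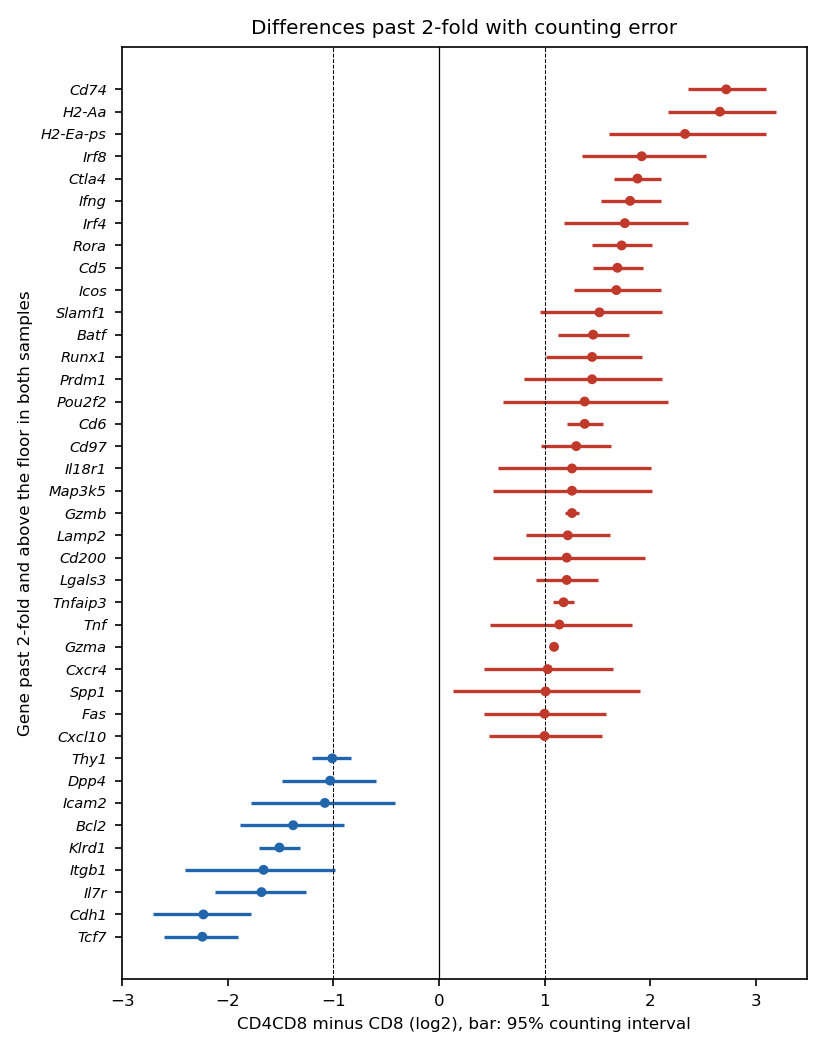
Of the 40 genes past 2-fold that were detected in both samples, 39 are shown with their log2 difference, CD4CD8 minus CD8 (points), and the 95% counting interval (bars), which leaves out any variation between mice or cell preparations. Cd74 at 2.72 and Tcf7 at -2.24 are the outermost genes, and no bar crosses 0.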

How the data were processed

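The authors' deposited values were log2 normalized counts of 770 genes in 9 samples, read with biotinylated capture probes and barcoded reporter probes, per the labels' protocols. The sources used here do not give the instrument, the scaling or the rule for the floor. Values were used as deposited. Counts were recovered as the largest step of which at least 95% of values up to 150 normalized counts were whole multiples within 0.0055 log2 (100% in both samples, with 29.8% and 38.3% by chance). Values at the floor were taken at the sample's lowest value above it, and a bound with the wrong sign was set to 0 (14 genes). Exact (Clopper-Pearson) intervals came from scipy 1.17.1, with numpy 2.4.6, pandas 2.3.3 and Python 3.11.15. The script was tested on simulated data. With 1 sample a side no test, SE or p-value was computed. The genes and the 30 lists were chosen with earlier results of these data known. Named genes were the co-receptors, the 15 largest differences in each direction, list members past 2-fold, up to 4 further members of each list by level, and markers of other cells. Lgals3, Klrk1, Klra6, Fcer1g, Itga1, Cd200r1, Lck, Zap70, Tbx21, Pdcd1, Ly86 and Ctsl were named after their values were seen. Of the 770 names, 754 matched a RefSeq symbol and 8 a synonym. Some genes counted in the lists are not reported here by name.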

Additional observations from a re-analysis of the deposited data

How the results depend on the processing

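The number of genes at least 2-fold higher in CD4CD8 was 44. It was 25 with all values raised to 6.30, the highest limit of the 9 samples, 28 after median centring or with equal sums computed without Gzma, Gzmb and Ccl5 (chosen after seeing the data), and 18 with equal sums. It was 88 at 1.5-fold and 6 at 4-fold. The number lower was 16. It was 34 with values at the floor as listed, 10 with values raised to 6.30, 35 with equal sums, 9 with genes detected in both samples, 30 at 1.5-fold and 4 at 4-fold. The median difference of 0.26 was -0.22 with equal sums, the 1 reversed result. As the deposited scaling differs from the counts themselves by 0.47 log2 (the ratio of the steps), equal sums nearly amount to unscaled counts. None of the 60 differences changed sign under the 6 planned settings of the values or the added one. That outcome was fixed in advance. The largest shift, 0.48 log2, was smaller than the 2-fold threshold, raised limits only shrink a difference, and bounds were not let past 0. With equal sums 34 stayed past 2-fold. Of the 30 list medians, 18 changed sign under at least 1 setting, and those of the class II, helper, granule, naive and NK-type lists did not. The helper median includes bounds. Its value over genes detected in both samples, 0.35, is smaller than the shift of 0.48 made by equal sums. Housekeeping scaling, added after seeing the data for the place of CD4CD8, gave 3 genes above and 6 below both other samples. With values raised to 6.30 the shares past 2-fold in other pairs were 20.2% for intraepithelial CD8 and CD4 and 0.787% for the node CD8 samples. Genes under 20 counts have no order here. No paired analysis was possible because each group had 1 sample with no replicate number.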

Other observations

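Of 32 measured genes of the interferon response, 22 were detected in either sample, and Irf8 alone passed 2-fold, beside 15.7% of all genes. The median of the list was 0.17, against 0.25 over all genes. Irf1, a factor that interferons induce, was 10.75 in CD4CD8 and 10.68 in CD8. The immediate-early and NF-kB list had 1 of 19 members past 2-fold, beside the same 15.7%, and it was Tnfaip3 (A20), an inhibitor of NF-kB, at 12.33 against 11.15. The immediate-early factors Fos, Jun and Egr1 were 12.26 against 11.97, 12.59 against 11.80 and 9.75 against 8.95. Of the 15 detected class I genes, H2-Q10 alone passed 2-fold. H2-D1 was 12.65 and 12.48 and H2-K1 11.50 and 11.28, and H2-Q10, whose probe may also meet other class I genes, was at the floor in CD4CD8 and 7.02 in CD8. The 19 housekeeping genes detected were all within 2-fold, with a median of 0.15.

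Cxcr4, a homing receptor, was 7.08 in CD4CD8 and 6.05 in CD8, the 2 lowest values of the 9 samples, against 9.11 in intraepithelial CD4. Pdcd1 (PD-1), the receptor of exhausted and activated T cells, was 5.59 and 5.43 against 8.39 in intraepithelial CD4, whereas Lag3, another inhibitory receptor, was 8.57 and 7.84 against 7.73.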
